A study of Mus musculus with 136 samples.

Results

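Trimethylation of histone H3 at lysine 4 (H3K4me3) was mapped by ChIP-seq on separate occasions in the same wild-type (WT) mouse embryonic stem cell (ESC) clone, and the peaks listed on each occasion were compared. The first list, called original here, held 97213 peaks (102 Mb) from 2 libraries, and the second, made alongside the rescue experiment and called rescue, held 110840 peaks (123 Mb) from 3 libraries. Together these were 208053 of the 607753 regions in all deposited lists used for the series, which had 136 libraries. A peak was counted as in both lists when it overlapped a peak of the other list by at least 1 bp, and as original only or rescue only otherwise. No enrichment value entered that rule. Both sets of libraries came from clone 410 of the male E14JU line (strain 129/Ola, genotype wildtype), grown on gelatin in serum and LIF and left untreated, so every value describes 1 clone. Mononucleosomes from MNase-digested native chromatin, with Drosophila chromatin spiked in, were immunoprecipitated. The study as a whole asked how MCM2-2A cells, which carry a histone-binding mutation in the replicative helicase subunit MCM2, pass on parental histones, and the rescue experiment added MCM2-R cells in which the mutation was reverted. No mutant library enters the comparison below.

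H3K4me3 is laid down by SET1 and MLL methyltransferases within COMPASS complexes and marks the starts of active genes, most of all CpG islands, where the mark spreads over several nucleosomes. In ESCs it also lies at silent developmental genes that carry Polycomb repressive complex 2 (PRC2) and H3K27me3, the bivalent state, for which the PRC2 subunit SUZ12 serves as a marker. H3K27ac accompanies active promoters and enhancers, whereas H3K9me3 marks heterochromatin and silenced repeats.

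Promoters of 7 genes are given first. The median number of CG pairs in this stretch was higher for genes with H3K4me3 in both lists than for other genes (below). Each is the 300 bases from 250 before to 50 after an annotated start, 5′ to 3′ on the gene's strand, from RefSeq on GRCm38.p6, the assembly behind mm10, with CG pairs in capitals. Adam17, which encodes a membrane sheddase, had 1 of the strongest peaks in both lists (chr12:21373583-21373882, minus strand, 30 CG pairs). Tet1, which encodes a 5-methylcytosine dioxygenase, lay under the widest rescue peak (chr10:62887275-62887574, minus strand, 17 CG pairs). Pou5f1 encodes the pluripotency factor OCT4 (chr17:35505782-35506081, plus strand, 11 CG pairs).
Adam17: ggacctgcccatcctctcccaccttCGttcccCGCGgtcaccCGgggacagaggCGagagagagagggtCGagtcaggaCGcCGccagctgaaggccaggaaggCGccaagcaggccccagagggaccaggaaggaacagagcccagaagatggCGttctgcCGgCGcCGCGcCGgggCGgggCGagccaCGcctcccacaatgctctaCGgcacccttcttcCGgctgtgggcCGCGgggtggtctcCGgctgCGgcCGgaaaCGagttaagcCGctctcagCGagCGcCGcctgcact
Tet1: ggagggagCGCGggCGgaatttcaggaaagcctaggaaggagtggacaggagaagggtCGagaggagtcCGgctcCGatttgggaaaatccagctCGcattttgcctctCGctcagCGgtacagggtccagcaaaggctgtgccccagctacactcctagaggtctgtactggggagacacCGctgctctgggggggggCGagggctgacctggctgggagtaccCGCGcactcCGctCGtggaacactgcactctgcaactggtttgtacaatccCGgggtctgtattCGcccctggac
Pou5f1: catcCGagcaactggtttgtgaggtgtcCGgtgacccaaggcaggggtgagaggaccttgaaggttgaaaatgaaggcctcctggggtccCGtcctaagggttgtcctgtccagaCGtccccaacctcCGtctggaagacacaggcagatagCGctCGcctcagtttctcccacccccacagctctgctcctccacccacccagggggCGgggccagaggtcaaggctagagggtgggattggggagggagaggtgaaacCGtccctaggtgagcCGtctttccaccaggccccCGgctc
Col3a1, a fibrillar collagen gene (chr1:45311288-45311587, plus strand, no CG pair), and Vmn2r29, a vomeronasal receptor gene (chr7:7278240-7278539, minus strand, 23 CG pairs), had a peak nearby in the original list alone.
Col3a1: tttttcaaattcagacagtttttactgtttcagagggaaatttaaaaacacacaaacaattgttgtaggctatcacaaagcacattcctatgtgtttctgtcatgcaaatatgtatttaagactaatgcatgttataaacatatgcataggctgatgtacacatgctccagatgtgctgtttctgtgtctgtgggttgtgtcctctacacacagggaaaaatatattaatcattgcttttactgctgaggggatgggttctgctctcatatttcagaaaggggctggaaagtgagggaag
Vmn2r29: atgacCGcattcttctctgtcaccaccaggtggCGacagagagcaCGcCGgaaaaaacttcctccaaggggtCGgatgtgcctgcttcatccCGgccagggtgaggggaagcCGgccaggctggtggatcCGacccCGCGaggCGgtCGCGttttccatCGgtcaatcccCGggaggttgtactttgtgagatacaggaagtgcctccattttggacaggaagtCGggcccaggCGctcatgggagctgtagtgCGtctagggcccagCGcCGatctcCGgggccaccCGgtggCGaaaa
2610042L04Rik (chr14:4334513-4334812, plus strand, 28 CG pairs) had a peak nearby in the rescue list alone, and Alb, the hepatocyte gene for serum albumin (chr5:90460620-90460919, plus strand, 3 CG pairs), in neither list. Vmn2r29 and 2610042L04Rik are exceptions, since the median was 3 CG pairs for original only and 4 for rescue only genes.
2610042L04Rik: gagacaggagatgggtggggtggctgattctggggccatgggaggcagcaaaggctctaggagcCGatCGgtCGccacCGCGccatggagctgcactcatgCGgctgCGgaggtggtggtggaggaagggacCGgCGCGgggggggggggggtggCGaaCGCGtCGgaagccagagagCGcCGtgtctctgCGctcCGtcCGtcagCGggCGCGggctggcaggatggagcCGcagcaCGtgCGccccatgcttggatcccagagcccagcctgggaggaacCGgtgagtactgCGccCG
Alb: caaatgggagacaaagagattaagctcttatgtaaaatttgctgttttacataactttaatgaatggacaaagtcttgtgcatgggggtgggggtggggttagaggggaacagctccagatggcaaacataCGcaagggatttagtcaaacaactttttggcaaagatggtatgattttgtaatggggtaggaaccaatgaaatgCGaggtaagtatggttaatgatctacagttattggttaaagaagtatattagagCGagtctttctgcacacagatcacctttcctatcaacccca

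Most H3K4me3 peaks of the original list were found again, and the rescue list added many more. Of the original peaks, 92881 overlapped a rescue peak (95.5%, 95% Wilson interval 95.4 to 95.7). In the other direction 84749 of the rescue peaks overlapped an original peak (76.5%, interval 76.2 to 76.7). This left 4332 original only peaks, 4.46% of that list, and 26091 rescue only peaks, 23.5% of that list. The shared sequence came to 97.0 Mb, which was 95% of the bases in the original list and 79.2% of those in the rescue list. Because the replicates of each experiment were deposited as a single list of reproducible peaks, there was no replicate spread and no test was made. Intervals cover counting error only, the sequencing depth behind each list is unknown, and an effect of the number of libraries (2 against 3) or of depth on list length was not tested.

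Peaks listed once were narrow and weak. The median width was 677 bp for shared peaks in original coordinates and 889 bp in rescue coordinates. Original only peaks had a median of 259 bp (quartiles 201.8 and 352 bp), and rescue only peaks a median of 312 bp (quartiles 218 and 443 bp). The widest original only peak spanned 1328 bp and the widest rescue only peak 2797 bp. Every one of the 13226 original peaks of at least 2000 bp was found again, and so was every one of the 2100 rescue peaks of at least 5000 bp. Among the narrowest, under 250 bp, 82.3% of 11391 original peaks and 30.1% of 12921 rescue peaks were found in the other list. A wider peak meets the 1 bp rule more readily by construction. With a reciprocal overlap of 50% the medians were 785 bp for shared (original coordinates), 373 bp for original only and 387 bp for rescue only peaks.

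**Figure D1:**
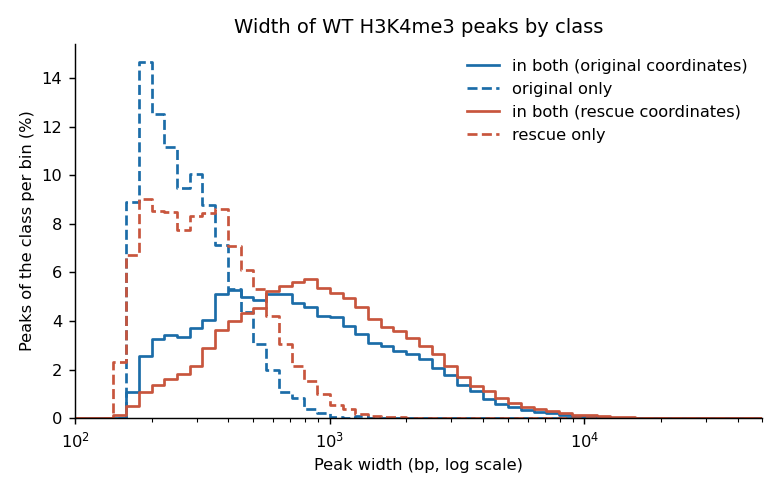
Width of H3K4me3 peaks on a log scale (x, bp) against the percentage of each class per bin (y); solid lines are peaks in both lists, dashed lines peaks in 1 list, blue original and red rescue. The dashed classes lie to the left, with medians of 259 and 312 bp against 677 and 889 bp for shared peaks.

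Strength was compared as rank within each list, since fold enrichment over local background need not be on the same scale in both. The rank fraction used here runs from 0 for the weakest to 1 for the strongest peak of a list. It had a median of 0.522 for shared original peaks and 0.116 for original only peaks, with fold enrichment medians of 10.3 and 4.10. For the rescue list these medians were 0.615 for shared and 0.170 for rescue only peaks, with fold enrichment of 13.0 and 4.19. By decile of strength in the original list, from decile 1 (weakest) to decile 10, the share found again was 80.0% in decile 1, 92.4% in decile 3 and 99.8% in decile 6, and all peaks of the 4 strongest deciles were found. The rescue list started lower, with 27.2% in its decile 1, 51.6% in decile 3, 86.1% in decile 5 and 98.2% in decile 7. The strongest original only peak had a fold enrichment of 11.9 (rank fraction 0.569), whereas the strongest rescue only peak reached 58.9 (rank fraction 0.903).

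**Figure D2:**
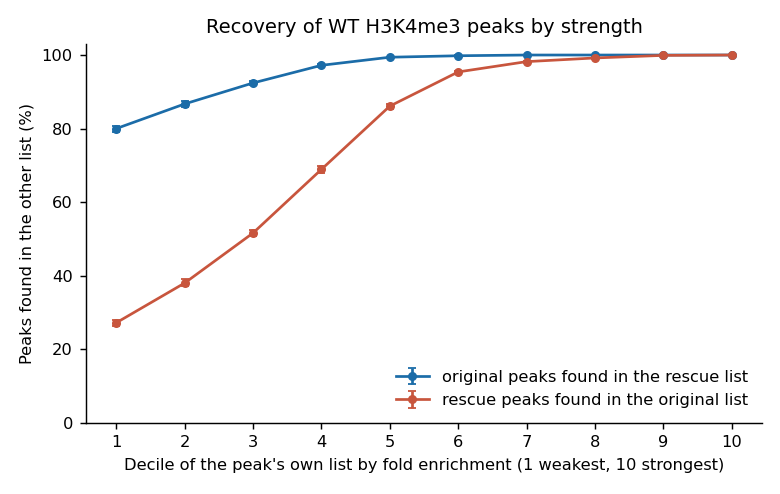
Percentage of H3K4me3 peaks found in the other list (y) by decile of the peak's own list, from 1 (weakest) to 10 (strongest) by fold enrichment (x); points are shares with 95% Wilson intervals. Original peaks (blue) start at 80.0% and rescue peaks (red) at 27.2%, and both come close to 100% in the strong deciles.

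Peaks listed once lay at widely varying distances from peaks of the other list. The median distance to the nearest peak of the other list was 1660 bp for original only and 3214 bp for rescue only peaks. Within 1000 bp lay a peak of the other list for 41.3% of original only and 27.6% of rescue only peaks. More than 10000 bp away were 783 original only (18.1%) and 6957 rescue only peaks (26.7%). Across the autosomes and the X chromosome the rescue only share ran from 21.9% on chromosome 19 to 25.2% on X, and the original only share from 3.51% on chromosome 12 to 5.46% on chromosome 14. The Y chromosome held 62 rescue peaks, 23 of them rescue only (37.1%), and 41 original peaks, all of which were found again. Just inside the 1 bp rule, 100 original peaks overlapped a rescue peak by fewer than 50 bp (median fold enrichment 3.56), and just outside it 95 lay within 50 bp of one without overlap (3.61). For rescue peaks these were 123 (3.38) and 122 (3.49).

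The order of matched peaks was similar in both lists, with many peaks moving. There were 72357 pairs in which 1 original and 1 rescue peak overlapped each other and no further peak. Over these pairs the rank fractions had a Spearman correlation of 0.920 and a Pearson correlation of 0.902, given as a description across peaks of pooled lists from 1 clone, and 63.4% of pairs differed by no more than 0.1. Summits of a pair lay a median of 22 bp apart, and 87.2% within 200 bp. Rescue peaks were the wider in 74.3% of pairs, with a median width ratio of 1.11 (quartiles 0.998 and 1.34). The rank fraction was higher in the rescue list in 71.7% of pairs, by a median of 0.0442. A list with more weak peaks gives its matched peaks a higher rank fraction by construction. When ranks were taken among the matched peaks alone, the median shift was -0.00127 (quartiles -0.0593 and 0.0584). On that scale pairs with H3K27ac shifted by a median of -0.00917 and pairs without by 0.00818, both small beside the quartiles over all pairs.

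**Figure D3:**
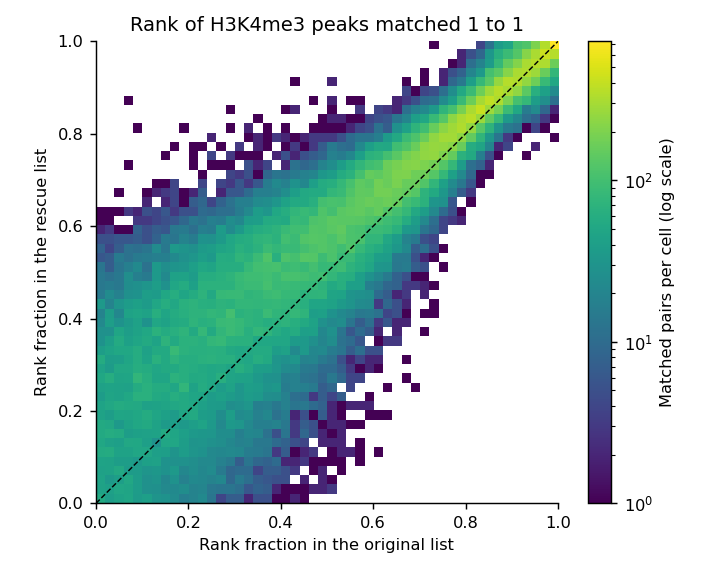
Rank fraction of 72357 matched H3K4me3 peaks in the original (x) and rescue (y) lists; colour gives the number of pairs per cell on a log scale, and the dashed line marks equal rank. Pairs crowd towards the line at the strong end and spread at the weak end, with more pairs above the line than below it.

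The strongest matched peaks lay mostly at gene starts or ends. Of the 10 pairs with the highest mean rank, 9 overlapped an annotated start or gene end, namely those of Gm51425, Scnm1 (a minor spliceosome component), Zfp975, Smim7, Zfp930, Adam17, Vipas39 (a vesicle sorting protein), Zfp33b and 3110040N11Rik, and the remaining pair lay 26999 bp from Klrb1c. Their fold enrichment ranged from 143 at 3110040N11Rik to 170 at Smim7 in the original list, and from 124 at Klrb1c and Zfp33b to 137 at Adam17 in the rescue list. All 10 overlapped H3K27ac and none overlapped SUZ12. The single strongest peak of either list, with fold enrichment of 173 in the original and 159 in the rescue list, lay at Zfp994, a zinc finger gene. Zinc finger genes of this kind occur as near-identical copies, and the sources used here do not say how reads mapping to several copies were placed.

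Some matched peaks changed rank widely. By rank fraction in the whole lists a shift of more than 0.3 was upward in the rescue list for 3145 pairs and downward for 205, whereas by rank among the matched peaks alone 913 rose and 731 fell by more than 0.3. The whole-list rank fractions, used in the remainder of this paragraph, favour upward shifts by construction. The 10 largest upward shifts ranged from 0.590 near Klrg1 to 0.805 near Gm31714, where fold enrichment was 3.61 in the original and 49.4 in the rescue list. Of these 10 peaks, 1 overlapped H3K27ac, 8511 bp from Cnpy2. The 10 largest downward shifts ran from -0.448 near Esrp2 to -0.506 near H6pd, where fold enrichment was 13.8 in the original and 3.64 in the rescue list. Of these, 7 overlapped H3K27ac, among them peaks 2759 bp from Cdc25a, which encodes a cell cycle phosphatase, and 30260 bp from Sp5, a Wnt target gene. Both sets were picked as extremes, so their difference in H3K27ac is a description.

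The widest H3K4me3 domains of the rescue list were made of several original peaks. A rescue peak covered 2 or more original peaks in 8692 cases, with up to 11 under a single peak, while 2197 original peaks covered 2 or more rescue peaks. At Tet1 a rescue peak of 41.6 kb (chr10:62863586-62905233) covered 7 original peaks, the widest of 27.6 kb. At Trim71, a ubiquitin ligase of early development, a rescue peak of 41.5 kb (chr9:114524548-114566002) covered 9 original peaks. The domain nearest Esrrb, an orphan nuclear receptor of the pluripotency network, was 35.7 kb in the rescue and 30.4 kb in the original list, 42239 bp from the annotated start. In the rescue list 2410137M14Rik (31.4 kb) and Gm30363 (31.2 kb) followed. Further wide domains of the original list lay at Mtf2, a PRC2 partner, with 21.6 kb against 24.5 kb, at Klf3 with 20.5 kb against 25.5 kb, and at Mllt6 with 20.3 kb against 21.5 kb. In the 5 widest rescue peaks the original peaks together filled 91.5% to 99.4% of the width.

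Taken over whole classes, overlap with other chromatin lists of the same clone differed for H3K27ac and SUZ12 and little for H3K9me3. H3K27ac overlapped 51.0% of shared peaks (interval 50.7 to 51.4), 32.2% of original only peaks (30.8 to 33.6) and 23.2% of rescue only peaks (22.7 to 23.8). Where a reciprocal overlap of 50% was required for a match, the shares were 50.2%, 50.2% and 32.9%, so that the difference between shared and original only peaks was gone. SUZ12 overlapped 7.79% of shared peaks (7.62 to 7.97), 0.923% of original only peaks (0.679 to 1.25) and 0.832% of rescue only peaks (0.729 to 0.949). H3K9me3 overlapped 6.24% (6.08 to 6.39), 7.62% (6.86 to 8.45) and 6.56% (6.27 to 6.87). With the longer H3K9me3 list of the rescue experiment these shares were 14.7%, 15.5% and 15.4%. H3K27me3 of the original experiment overlapped 16.5% of shared, 9.81% of original only and 10.9% of rescue only peaks. The H3K27ac and first H3K9me3 lists stem from the original experiment, so those values set rescue peaks against chromatin mapped on the other occasion. The SUZ12 label names neither experiment, and the paper mapped SUZ12 in crosslinked rather than native chromatin.

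**Figure D4:**
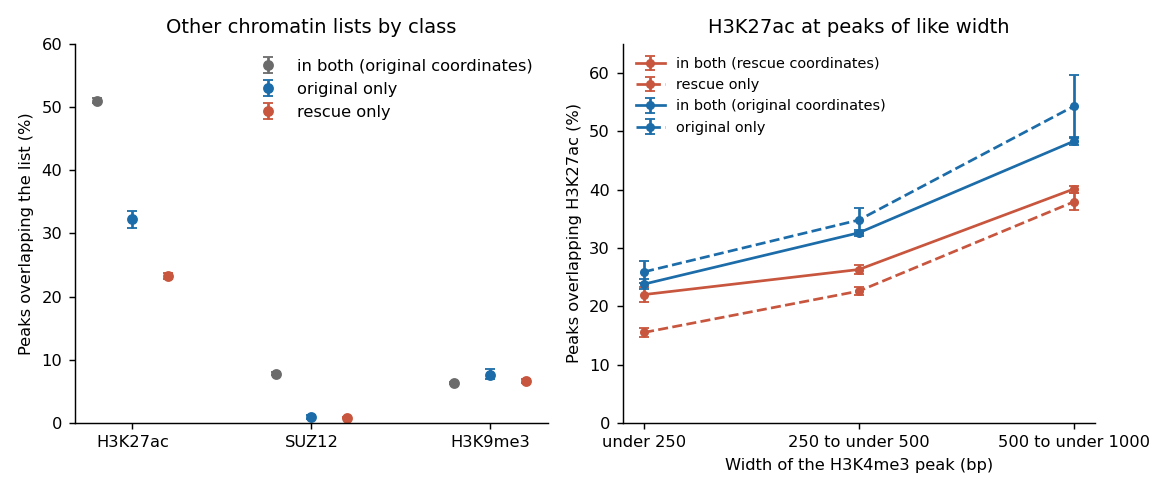
Left, percentage of H3K4me3 peaks of each class (y) that overlap H3K27ac, SUZ12 or the first (original) H3K9me3 list (x). Right, percentage overlapping H3K27ac (y) by width of the H3K4me3 peak (x). Points are shares with 95% Wilson intervals. In the 3 width ranges drawn, all under 1000 bp, original only peaks (dashed blue) lie above shared ones and rescue only peaks (dashed red) below them.

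Wider peaks meet other regions more often, and the classes differed in width, so the shares were also taken within width ranges. Under 250 bp, H3K27ac overlapped 25.9% of original only peaks (24.0 to 27.8) and 23.8% of shared original peaks (23.0 to 24.7). From 250 to under 500 bp these shares were 34.8% (32.7 to 36.9) and 32.6% (32.0 to 33.1), and from 500 to under 1000 bp 54.3% (49.0 to 59.6) and 48.3% (47.7 to 48.9). From 1000 to under 2000 bp there were only 5 original only peaks, of which 3 overlapped H3K27ac, against 67.3% of shared ones. Under 1000 bp, then, the share with H3K27ac was no lower for original only than for shared peaks of like width. Rescue only peaks under 250 bp overlapped H3K27ac in 15.5% (14.7 to 16.2) against 22.0% (20.7 to 23.3) for shared rescue peaks. From 250 to under 500 bp the shares were 22.6% (21.9 to 23.3) and 26.3% (25.6 to 27), and from 500 to under 1000 bp 37.9% (36.5 to 39.4) and 40.1% (39.5 to 40.7). From 1000 to under 2000 bp they were 56.5% of 324 (51.0 to 61.8) and 63.4% (62.8 to 64.1). Rescue only peaks thus had the lower share in all 4 width ranges. SUZ12 under 250 bp overlapped 0.897% of rescue only peaks (0.722 to 1.11) and 1.24% of shared rescue peaks (0.933 to 1.63). From 500 to under 1000 bp it overlapped 0.683% of rescue only peaks (0.482 to 0.968) and 2.68% of shared rescue peaks (2.5 to 2.88). At the summit alone, which has no width, H3K27ac was present for 45.1% of shared, 28.4% of original only and 18.8% of rescue only peaks. These summit shares are over whole classes and were not split by peak width or strength.

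At like strength the gap in H3K27ac between shared peaks and peaks listed once was larger among stronger peaks, in both lists. In decile 1 of the rescue list H3K27ac overlapped 45.9% of 3014 shared and 28.5% of 8069 rescue only peaks. In decile 5 it overlapped 41.0% of 9547 and 14.7% of 1541, and in decile 7 45.6% of 10885 and 2.99% of 201 (1.38 to 6.36). In the original list H3K27ac overlapped 39.7% of 7825 shared and 33.2% of 1954 original only peaks in decile 1, 39.1% of 8981 and 28.4% of 740 in decile 3, and 43.4% of 9617 and 12 of 60 (11.8% to 31.8%) in decile 5. Within a decile the classes still differed in width. In decile 1 of the rescue list the medians were 401 bp for shared and 304 bp for rescue only peaks. There SUZ12 overlapped 0.896% of shared and 0.868% of rescue only peaks, and in decile 5 1.06% and 1.23%. In decile 8 of the rescue list it overlapped 8.99% of shared and 0 of 86 rescue only peaks (0 to 4.28%). In decile 9 of the original list, which held no original only peak, SUZ12 overlapped 32.1% of shared peaks.

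The strong rescue only peaks formed a small set of narrow peaks with little H3K27ac. The 4 strongest deciles of the rescue list held 297 rescue only peaks. Their median width was 226 bp, against 1438 bp for the 44041 shared peaks there. Of the 297, 142 (47.8%) lay within 1000 bp of an original peak, against 27.6% of all rescue only peaks. More than 10000 bp from any original peak lay 84 (28.3%), against 26.7% of all rescue only peaks. H3K27ac overlapped 7 of the 297 (2.36%, 1.15 to 4.78) and 59.7% of the shared peaks. SUZ12 overlapped 2. H3K9me3 of the original experiment overlapped 6.06% (3.87 to 9.38), close to the 6.09% of shared peaks, while H3K9me3 of the rescue experiment overlapped 34.7% (29.5 to 40.3) against 15.5%. Among the peaks narrower than 300 bp in these deciles, a limit chosen after the values were seen, H3K27ac overlapped 2 of 199 rescue only peaks (1.01%, 0.276 to 3.59) and 144 of 646 shared ones (22.3%, 19.3 to 25.7). For H3K9me3 of the rescue experiment the shares among these narrow peaks were 33.2% (27 to 40.0) and 26.3% (23.1 to 29.8), with overlapping intervals.

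The 10 strongest rescue only peaks showed the same features singly. The strongest, 219 bp wide (chr1:171063926-171064144), lay 4523 bp from Fcgr3, an Fc receptor gene of immune cells, and 212 bp from an original peak. The next had a fold enrichment of 54.9 and lay 110448 bp from Zfp980, and the third, with 41.3, lay 6456 bp from an end of Gm10323. The others, with fold enrichment between 33.0 and 39.5, lay nearest to Tex11 (a meiosis gene), Gm40987, Gm40202, Gm36789, Gm13990, Zfp991 and Gm9839, at distances from 637 to 382849 bp. Their widths ran from 188 to 484 bp, and none of the 10 overlapped H3K27ac, SUZ12 or the H3K9me3 list of the original experiment. Those near Fcgr3, Zfp991 and Gm9839 overlapped H3K9me3 of the rescue experiment. The 10 strongest original only peaks, with fold enrichment between 10.6 and 11.9, lay nearest to Gm40244, Gm40797, Eya1, Pramel30, Gm33347, Cxcl15, Tspan9, Triml1, Cd52 and Rex2. Of these only the peak near Eya1, a developmental phosphatase gene, overlapped H3K27ac.

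The 5 widest peaks found once had mostly higher rank fractions in the original than in the rescue list, with overlapping ranges. In the rescue list they measured 2.80 kb near Eed (a PRC2 subunit, 9963 bp away), 2.66 kb near Gm40424, 2.51 kb near Tet1 (24711 bp away), 2.29 kb near Zfp638 and 2.15 kb near Gramd2. Their fold enrichment lay between 2.79 and 4.51, and the nearest original peak lay between 131 and 1903 bp away. Their rank fraction ran from 0.0195 to 0.208. Those near Gm40424 and Zfp638 lay above the median of 0.170 for rescue only peaks and the others below it. In the original list the widest were 1.33 kb near Frmd4a, 1.29 kb near Lrr1, 1.26 kb near C1qtnf2, 1.01 kb near Slc5a6 and 1.00 kb at 1700001C19Rik, with 708 to 8001 bp to the nearest rescue peak. Their fold enrichment ran from 4.42 to 8.87 and their rank fraction from 0.152 to 0.472, all above the median of 0.116 for original only peaks.

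Start sites belonged almost wholly to the shared peaks. An annotated start lay within 14.3% of shared original peaks (14.1 to 14.6), 0.859% of original only peaks (0.621 to 1.19) and 0.854% of rescue only peaks (0.748 to 0.976). Starts within 2500 bp were found for 23.3%, 12% and 8.06%. Chromosome 18, for which no start was at hand, was left out of these shares. Protein-coding gene bodies overlapped 60%, 56.3% and 56.8% of the classes, a narrower range than that at starts.

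Seen from the other lists, most SUZ12 sites carried H3K4me3 on both occasions. Of 6298 SUZ12 peaks, 5969 (94.8%, 94.2 to 95.3) overlapped H3K4me3 in both lists, 51 in the rescue list alone, 5 in the original list alone and 273 in neither. The 5 were nearest to Plekha1, Sall3, LOC115490200, Gm42043 and Chd6, named after their values were seen, with SUZ12 fold enrichment between 2.51 and 8.36. The strongest of the 51 lay 1436 bp from Hspa1a, a heat-shock gene, with SUZ12 fold enrichment of 18.5. Of 128247 H3K27ac peaks, 49.5% overlapped H3K4me3 in both lists, 6.23% in the rescue list alone, 1.25% in the original list alone and 43.0% in neither. Of 40376 H3K9me3 regions the shares were 10.9%, 3.00%, 0.587% and 85.6%.

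At genes the lists differed little. A protein-coding gene was counted where a peak lay within 2500 bp of a start, or of either gene end for the 4395 of 21887 genes with no start at hand. H3K4me3 was found in both lists at 15940 genes (72.8%), in the original list alone at 36 (0.164%), in the rescue list alone at 314 (1.43%) and in neither at 5597 (25.6%). With equal numbers of peaks taken from each list the counts were 92 original only and 225 rescue only, and with the strongest 50000 of each 86 and 150. The median number of CG pairs in the promoter was 21 for genes in both, 3 for original only, 4 for rescue only and 2 for genes in neither. Of 6388 genes with 21 or more CG pairs, 99.5% had H3K4me3 in both lists, 1 in the original list alone and 4 in the rescue list alone. Of 3186 genes with 2 or fewer, 10.8% had the mark in both, 15 in the original list alone and 60 in the rescue list alone. The genes of 1 list alone were thus few throughout and lay mainly at promoters poor in CG pairs.

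**Figure D5:**
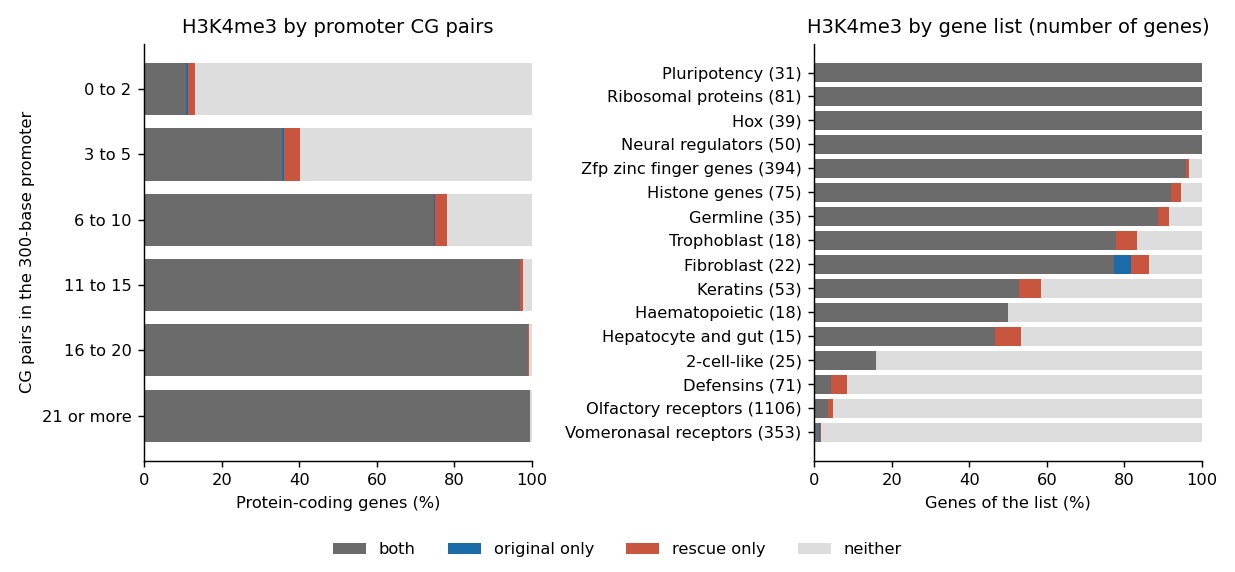
Percentage of protein-coding genes (x) with H3K4me3 in both lists, in 1 list or in neither, by number of CG pairs in the promoter (left, y) and for 16 gene lists (right, y, number of genes in brackets); bars are stacked to 100%. Genes in both rise from 10.8% at 0 to 2 CG pairs to 99.5% at 21 or more.

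Several of the genes found in 1 list alone had a peak that the other list held as well, ending outside the window. This held for 7 of the 36 original only and 14 of the 314 rescue only genes. Among the 10 strongest original only genes it was so for Gm10013 (fold enrichment 95.5), Pcp2 (73.9), Cnot7 (71.1), Nme9 (17.0) and Slc15a2 (7.77). Peaks with no overlap in the rescue list included those of Vmn2r29 (9.55, 418 bp wide, 17859 bp from a rescue peak), Lipo1 (6.36), Gsdma2 (6.29) and Col3a1 (5.47, 173 bp wide, 43599 bp away). Among the strongest rescue only genes the shared peaks were those of Kcnrg (79.6), Ovol3 (73.3), Slc7a3 (57.4), Usp50 (46.5), Phkg1 (44.4), S100a2 (18.2) and Rsc1a1 (17.6). The other 3, Gm21451 (24.9), 2610042L04Rik (22.8) and Msr1 (13.9, a macrophage scavenger receptor), had narrow peaks of 198, 359 and 169 bp, at 141493, 151971 and 155878 bp from the nearest original peak. Vmn2r29 and 2610042L04Rik belong to multigene families, so their peaks are uncertain as to copy.

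Genes that define ESCs had H3K4me3 in both lists. All 8 ESC markers did, and all 8 overlapped H3K27ac. Over all protein-coding genes 72.8% had H3K4me3 in both lists, H3K27ac was found at 53.8% and SUZ12 at 19.7%. At Sox2 fold enrichment was 136 in the original and 117 in the rescue list, at Pou5f1 121 and 78.3, at Zfp42 133 and 98.3, and at Nanog, where the strongest peaks of the lists overlapped only in part, 56.6 and 28.5. Of 8 fibroblast markers, relevant where feeder cells remain, 4 had the mark in both lists, Col3a1 in the original list alone, Dcn in the rescue list alone (fold enrichment 2.84), and Lum and Postn in neither. Of the other markers, 3 of 5 haematopoietic, 1 of 4 hepatocyte and 3 of 4 neuronal genes had it in both, while those with it in neither included Ptprc, Alb, Ttr, Cyp7a1 and Rbfox3. H3K27ac was found at 1 of 8 fibroblast, 1 of 5 haematopoietic, 1 of 4 hepatocyte and 2 of 4 neuronal markers. SUZ12 was found at 3 fibroblast and 2 ESC markers and at 0 of the others.

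At pluripotency genes the presence of H3K4me3 was the same in both lists, while the strongest single peak was mostly wider in the rescue list. All 31 had the mark in both lists, against 72.8% of all protein-coding genes. At 28 of them the strongest original and the strongest rescue peak at the gene overlapped each other, and at Klf5, Lefty2 and Tcl1 they were separate peaks, so that their widths are not compared. The rescue peak was the wider at 27 of the 28, with median widths of 6378 bp in the original and 8527.5 bp in the rescue list and a median ratio of 1.20. Over all 15233 genes whose strongest peaks overlapped 66.0% were wider, with a median ratio of 1.04. Where the original peak was at least 5000 bp the median ratio was 1.11 at pluripotency genes and 1.04 at all genes. The rescue peak covered 2 or more original peaks at 19 of the 28 (67.9%), against 15.6% of the 15233. Among those with an original peak of at least 5000 bp it did so at 12 of 18 pluripotency genes (66.7%) and at 446 of 1265 genes in all (35.3%), values that describe a list chosen with earlier results of these data known. At Tbx3 the peak measured 9.66 kb in the original and 23.9 kb in the rescue list, at Tdgf1 7.15 and 18.5 kb, and at Dppa5a 4.08 and 12 kb. The rescue peaks at these genes lay over 5, 5 and 2 original peaks, of which only the strongest is measured here. The total extent of the original peaks at these genes was not compared. At Nr0b1, Zfp42, Sall4 and Lifr the widths differed by little, for example 12.5 and 12.7 kb at Zfp42. The peak at the Esrrb start, a different one from the wide domain described above, measured 2.48 and 2.56 kb. Outside this list, the strongest peak at Kdm5b, an H3K4 demethylase gene, measured 7.73 kb in the original list. The rescue peak there measured 26.7 kb and lay over 5 original peaks.

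Several lists of bivalent and of broadly expressed genes were fully shared. H3K4me3 was in both lists at all 39 Hox genes (38 with SUZ12), all 50 neural regulators (49 with SUZ12), all 57 clustered protocadherins, all 81 ribosomal protein genes, all 32 genes of PRC2 and PRC1 subunits, all 24 formative state genes, all 23 genes of the MCM helicase and histone recycling, all 15 of H3K9 methylation, all 8 H3K4 demethylases and all 8 DNA methylation and Tet genes found. Over all protein-coding genes 72.8% had H3K4me3 in both lists, and SUZ12 was found at 19.7%. At promoters with 11 to 15 CG pairs the share in both lists was 97.0%, and with 21 or more 99.5%. Hox genes were strong among all peaks, with a median rank fraction of 0.807 in the original and 0.820 in the rescue list. They stood below ribosomal protein genes (0.947 and 0.963) and below all genes in both lists (0.917 and 0.926). Among COMPASS subunits 18 of 19 had the mark in both lists and Ncoa6 in neither. Other COMPASS genes such as Dpy30 (132 and 89.3), Kmt2d (105 and 95.6), Setd1b (102 and 90.5) and Wdr82 (95.3 and 99.1) had high fold enrichment in both. Of 24 housekeeping genes 22 had it in both, while Hprt, with 22 CG pairs in its promoter, and Ywhaz had it in neither. Of 34 imprinted genes 33 had it in both and Rtl1 in neither.

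Single-list calls were few in number in every gene list. The rescue only share was highest among hepatocyte and gut (6.67%), keratin (5.66%), trophoblast (5.56%), fibroblast (4.55%) and defensin genes (4.23%). These shares rest on 1 to 3 genes each, against 1.43% over all genes, and other lists such as Zfp genes (0.761%) lay below it. Of 49 mesoderm and endoderm regulators 48 were in both lists and Myf5, a muscle regulator, in the rescue list alone (fold enrichment 10.1, 315 bp wide). The trophoblast gene Elf5 (5.58), the germline gene Piwil2 (3.29), the gut mucin gene Muc2 (4.15) and the ligand gene Fgf6 (5.04) were likewise rescue only, beside 14 of 18, 31 of 35, 7 of 15 and 51 of 55 members in both. Of 75 histone genes 69 were in both, and the oocyte and testis linker histone genes H1f8 (6.25) and H1f7 (8.06) in the rescue list alone. Of 394 Zfp zinc finger genes 378 were in both, and Zfp433, Zfp652 and Zfp934 in the rescue list alone. Keratin genes counted 28 of 53 in both and 3 rescue only (Krt9, Krt33b, Krt83), and defensin genes 3 of 71 in both and 3 rescue only. Of 1106 olfactory receptor genes 40 were in both and 15 in the rescue list alone (1.36%), close to the 1.43% of all genes. These 15 peaks were 160 to 452 bp wide with fold enrichment from 2.52 to 7.17. Of 353 vomeronasal receptor genes 4 were in both, Vmn2r29 in the original list alone and Vmn1r48 in the rescue list alone. Of 25 genes of the 2-cell-like state 4 were in both and none in 1 list alone, and Zscan4c, Zscan4d and Zfp352 were in neither. Of 22 fibroblast genes 17 were in both, of 18 haematopoietic genes 9, and of 18 neuronal and glial genes 14. Over the lists the single-list calls were mostly rescue only, as they were over all genes.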

How the data were processed

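Peak lists were used as the authors deposited them, on mm10. Per the labels they hold reproducible peaks, with all replicates of a group combined. The SUZ12 list is labelled IDR (irreproducible discovery rate) peaks instead, and the sources used here do not say how that filter differed. MACS2 2.1.0, Picard 2.20.7, BWA 0.7.15 and cutadapt 2.5 are listed in the submitters' processing notes. The sources used here do not give the peak-calling settings. The deposited columns used were position, fold enrichment as a ratio over local background, −log10 q-value and summit, and for H3K27me3 and H3K9me3 position and length. Fold enrichment was turned into ranks within each list. Overlaps, distances and Wilson intervals were computed in Python 3.11.15 with numpy 2.4.6, pandas 2.3.3 and scipy 1.17.1, and were tested on simulated data. Coordinates are 1-based. RefSeq starts were at hand for 17492 of 21887 protein-coding genes. With several starts for a gene, the promoter richest in CG pairs was used. Of 2765 entries in 29 gene lists 2752 were matched. Named were the 10 strongest peaks and genes of each class, the 5 widest peaks, the 10 largest rank shifts each way, up to 4 members of a gene list by rank and single-list members, and further genes named at pluripotency genes and among genes in neither list were chosen after their values were seen. A few genes that this rule names are not reported here. The members and lists were chosen with earlier results of these data known. Other overlap rules, list lengths, windows and rankings were tried, with their effect given at the end.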

Additional observations from a re-analysis of the deposited data

How the results depend on the processing

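No paired analysis was possible because the authors combined the replicates of each experiment into a single list, and for the same reason no replicate could be left out. Requiring a reciprocal overlap of 50% lowered the share of original peaks found again from 95.5% to 75.1% and that of rescue peaks from 76.5% to 65.9%, so that peaks joined in 1 list counted as unmatched. Merging peaks within 1000 bp gave 96.2% and 79.9%, equal numbers of the strongest peaks 92.0% and 83.1%, and the strongest 50000 of each list 92.5% and 88.1%. The share found was thus higher for original than for rescue peaks under all 4. For H3K27ac at shared, original only and rescue only peaks the shares were 50.2%, 50.2% and 32.9% with the reciprocal overlap, 50.5%, 29.2% and 19.1% with merged peaks, and 60.9%, 54.3% and 31.0% with the strongest 50000. With equal numbers they were 37.3% at original only and 20.3% at rescue only peaks. The deficit at original only peaks was therefore absent under the reciprocal overlap. For SUZ12 in the same order the shares were 9.07%, 2.71% and 1.26% with the reciprocal overlap and 8.82%, 0.248% and 0.299% with merged peaks. Equal numbers gave 8.07% at shared peaks, and the strongest 50000 gave 14.3% at shared and 1.62% at rescue only peaks. For H3K9me3 the shares were 14.7%, 15.5% and 15.4% with the list of the rescue experiment. The reciprocal overlap gave 6.38% at original only peaks, merged peaks 6.90% at shared and 7.02% at rescue only peaks, equal numbers 7.26% at rescue only peaks, and the strongest 50000 5.78%, 8.88% and 7.02%. Genes in the original list alone numbered 92 with equal numbers and 86 with the strongest 50000 against 36, and genes in the rescue list alone 150 with the strongest 50000 against 314. A window of 1000 bp (36 and 283 genes) or at either gene end (38 and 358) kept both counts within 1.5 times. Of 7 further recomputed medians of rank and width 6 stayed within the quartiles of their class, and the median width of original only peaks became 373 bp with the reciprocal overlap. Depth cannot be read from the lists, so a peak absent from a list may lie below its threshold.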
